A study of Coregonus migratorius and Coregonus peled with 8 samples.

Results

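Larvae of 2 Siberian whitefishes that had been taken from ponds, and not reared in aquaculture, were compared with each other. Each side was a single library of messenger RNA, labelled Coregonus peled (peled) from nature and Coregonus migratorius (the Baikal omul) from nature. These 2 libraries were chosen by their labels from the 8 libraries of the series. Every library was made from pooled RNA of 12 to 16 whole larvae, after a separate extraction for each larva. The nature larvae came from hatchery ponds near the Belaya River and received no heat treatment. The other 6 libraries are used here as a reference for the species. They come from larvae of each species kept for 1.5 months at 9 to 12 °C, as an unheated control, after acute stress (21 °C for 1 h) or after chronic stress (24 h at 21 °C, repeated 3 times weekly). The sources used here state neither age nor water temperature of the nature larvae. With a single pool for each label, species, pond and pool cannot be told apart within the nature pair.

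The Baikal omul is a whitefish of Lake Baikal that feeds largely on plankton and small fish and spawns in rivers, and the peled is a whitefish of Siberian lakes and rivers that is widely stocked and farmed. Both belong to the salmonid family, whose ancestor duplicated its whole genome. Many salmonid genes therefore exist as similar copies, which an assembly of short reads can merge or split. Closely related species also carry slightly different versions of the same gene, and an assembly made from both can list these versions apart.

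The deposited tables list 2184 features under assembly identifiers of the form written by the Trinity assembler, and are treated as genes. No gene name is paired with them in the files, so no function is given to any of them, no gene list could be read, and the larval tissue could not be checked against marker genes. Values are normalized expression signals of unstated unit, and sequencing depth is unknown. Only 21.6% (omul) and 30.3% (peled) of the lowest nature values lay within 0.1 of a whole multiple of the smallest one, so reads were not recovered. The summed value was 154860 in the nature library labelled omul and 228369 in that labelled peled, against 79169 to 118972 in the 6 reared libraries. The median value was close, at 10.9 and 10.2. The genes listed are a selection by an unstated rule, and the smallest log2 range of any gene over the 8 libraries was 2.25. Of the 2184 genes, 1859 (85.1%) had a log2 range of at least 2 within the reared libraries alone. The list is therefore rich in genes that differ among reared larvae, and shares of genes describe this list and not the transcriptome.

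The species labels were checked first, on genes that separated the species in the reared larvae. These genes were chosen in the 6 reared libraries alone, by a gap of at least 4-fold between every peled and every omul library and by values of 10 or more throughout the higher species. They numbered 279 with higher values in peled and 254 with higher values in omul. Neither nature library showed the low values that its species showed in aquaculture. The 254 genes higher in omul had medians of 1.55, 1.76 and 1.97 in the control, acute and chronic peled libraries, but 29.7 in the nature library labelled peled. In the nature library labelled omul they stood at 23.9, and in the reared omul libraries between 35.0 and 36.7. For 234 of these 254 genes (92.1%) the nature library labelled peled lay more than 2-fold above all 3 reared peled libraries. By any margin it lay above them for 250. Among 972 genes at 10 or more in nature and within 2-fold between the nature libraries, it did so for 682. The 254 genes were chosen for low values in reared peled, which raises their count.

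The reverse set behaved likewise in the nature library labelled omul. The 279 genes higher in peled had medians of 1.68, 1.36 and 1.40 in the control, acute and chronic omul libraries, but 12.7 in the nature library labelled omul. They stood at 9.41 in the nature library labelled peled and at 28.9 to 31.3 in the reared peled libraries. For 224 of the 279 genes (80.3%) the nature library labelled omul lay more than 2-fold above all 3 reared omul libraries. By any margin it lay above them for 268, and for 580 of the same 972 genes. The 279 genes were chosen for low values in reared omul, which raises their count. Both nature libraries thus stood above the low reared level for most genes of both sets. No reared library could do so, by the choice of the sets. The sets were not held alike. Within 2-fold of the reared omul mean lay 199 (nature, labelled omul) and 186 (nature, labelled peled) of the 254 genes higher in omul. Within 2-fold of the reared peled mean lay 132 and 74 of the 279 genes higher in peled, in the same order.

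The same values were put on a scale on which 0 is the mean of the reared omul libraries and 1 the mean of the reared peled libraries, in log2(value + 1). On the 279 genes higher in peled, the median position was 0.72 for the nature library labelled omul and 0.55 for that labelled peled. The nature library labelled omul lay nearer the peled side than its counterpart for 223 of them (79.9%). On the 254 genes higher in omul the medians were 0.11 and 0.030, again with the library labelled omul farther toward peled, for 152 genes (59.8%). The order of the nature libraries on this scale was thus the reverse of their labels in both sets. It was so in each of the 13 settings run. Scaling to a common sum and removing a trend of the ratio with level were not among these settings. A common sum shifted the median log2 ratio of peled to omul in nature, over all genes, from -0.14 to -0.56. On the 254 genes this ratio was small, at 0.17. The order in this set may therefore not hold under a common sum, which was not run for the positions. With 1 library a side the order is a description of these pools. The cause was not tested, nor was the species of the larvae in the nature pools. Every result below rests on these libraries and none can be given without them. In what follows, peled, omul and a species difference in nature mean the libraries so labelled, and every direction in nature holds for the labels as given and turns if they are exchanged.

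**Figure D1:**
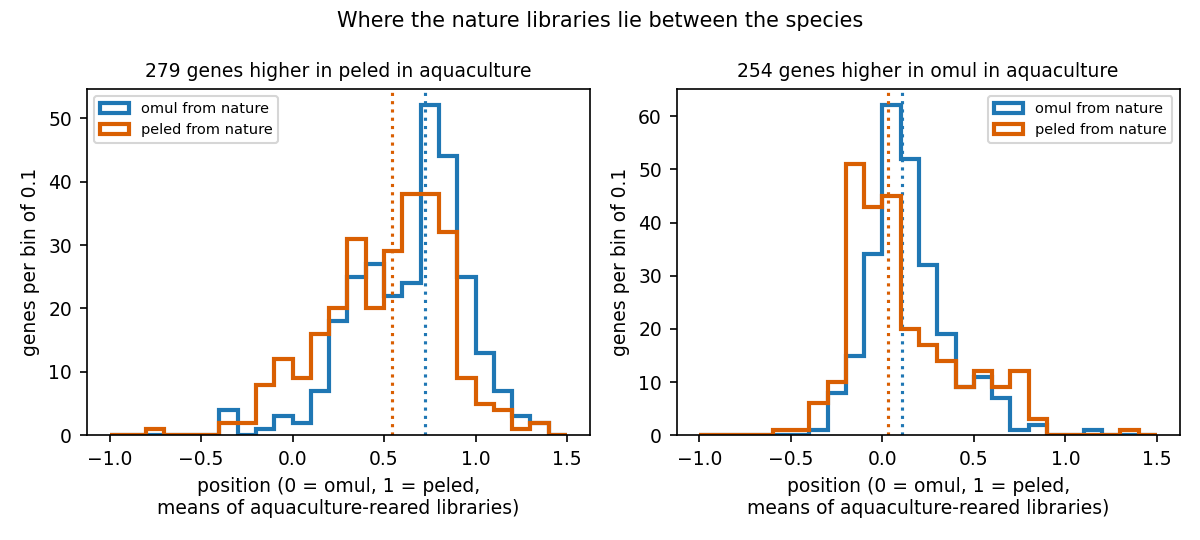
Position of each gene in the nature libraries between the reared omul mean (0) and the reared peled mean (1), as the number of genes per bin of 0.1, for the 279 genes higher in peled (left) and the 254 higher in omul (right) in aquaculture. Dotted lines mark medians, at 0.72 (omul) and 0.55 (peled) on the left and at 0.11 and 0.030 on the right, so that the omul-labelled library lies farther toward peled in both panels.

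The genes with the widest gaps in aquaculture show this at high levels, but are extremes of their sets. The 2 higher in peled lay at positions of 0.91 to 0.92 (omul) and 0.87 (peled), against set medians of 0.72 and 0.55. The 2 higher in omul lay at 0.014 to 0.044 and 0.012 to 0.017, against 0.11 and 0.030. TRINITY_DN79_c1_g2 was at 3758, 2881 and 3047 in the control, acute and chronic peled libraries and at 8.57, 0.558 and 0.264 in the omul ones. In nature it was at 1770 in the library labelled omul and 1249 in that labelled peled. Both nature values lay far above every reared omul library and below every reared peled library. TRINITY_DN28795_c0_g1 was at 914, 1085 and 1037 in reared peled, at 5.11, 0.640 and 0.749 in reared omul, and at 594 (omul) and 475 (peled) in nature. In the opposite direction, TRINITY_DN7205_c1_g2 was at 1301, 1130 and 1183 in reared omul, at 1.84, 1.75 and 2.27 in reared peled, and at 924 (omul) and 1083 (peled) in nature. TRINITY_DN5_c3_g1 was at 811, 599 and 489 in reared omul, at 2.23, 1.94 and 1.32 in reared peled, and at 573 (omul) and 579.9 (peled) in nature. In all 4 genes the reared libraries of the species did not overlap, while the nature libraries lay within 2-fold of each other.

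**Figure D2:**
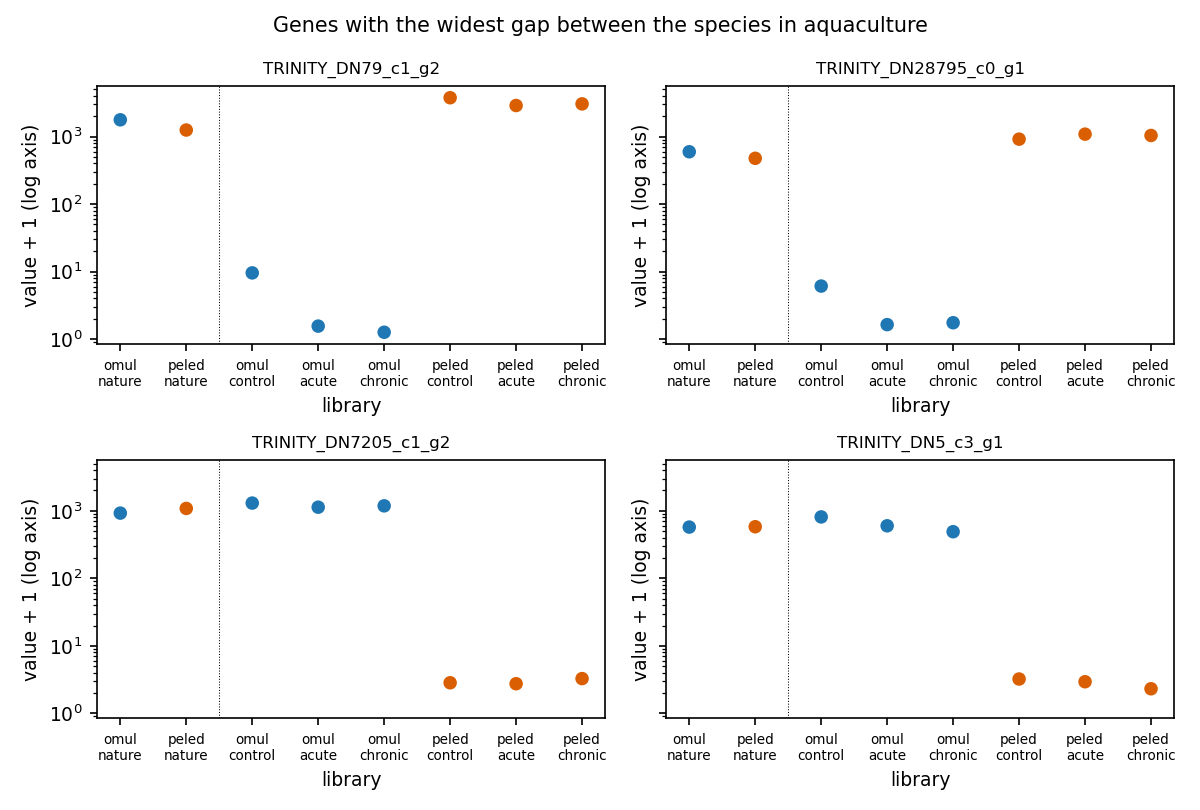
Value + 1 (log axis) of the 4 genes with the widest gap between reared peled and reared omul libraries, in each of the 8 libraries (blue, omul; orange, peled; nature libraries left of the dotted line). The nature libraries of both labels lie near the level of the higher species in each panel, for example at 1770 and 1249 for TRINITY_DN79_c1_g2. These 4 genes lie nearer that level than the medians of their sets.

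The nature libraries were then compared gene by gene, by the log2 ratio of (peled + 1) to (omul + 1), with no test because each side is 1 pool. A gene was read where its higher nature value was at least 10. This held for 1294 genes, the lowest of them at 10.02 and the highest gene left out at 9.996. Of these, 322 (24.9%) were at least 2-fold apart and 972 (75.1%) were closer. The library labelled peled was at least 2-fold higher for 163 genes (12.6%) and that labelled omul for 159 (12.3%). Large differences were few. At 4-fold or more there were 9 genes higher in peled and 26 higher in omul, and at 8-fold or more 2 and 3. Over all 2184 genes the median log2 ratio was -0.14, with 5% of genes below -1.58 and 5% above 1.17.

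No gene at 10 or more in a nature library was listed at 0 in the other. Listed at 0 were 20 genes in the library labelled peled and 6 in that labelled omul, 3 of them in both. The highest omul value among genes at 0 in peled was 5.89, and the highest peled value among genes at 0 in omul was 1.37. Of the 1294 genes read, 0 were below 1 in the library labelled omul and 4 in that labelled peled.

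The nature pair was about as close as libraries of the same species after different heat treatment. Across all genes its log2 values correlated at r = 0.93, beside 0.91 to 0.93 among the reared omul and 0.86 to 0.89 among the reared peled libraries. Genes at least 2-fold apart made up 14.2% to 21.6% in pairs of reared omul libraries and 19.3% to 38.8% in pairs of reared peled libraries. Between reared peled and reared omul they made up 86.4% (control pair), 89.4% (acute pair) and 81.8% (chronic pair). Set against reared larvae, the nature library labelled peled was farther from its own species (84.5% to 88.6% of genes at least 2-fold apart, r = 0.22 to 0.41) than from omul (62.7% to 67.7%, r = 0.64 to 0.65). The nature library labelled omul was nearer its own species (52.4% to 56.2%, r = 0.65 to 0.68) than peled (74.7% to 80.8%, r = 0.36 to 0.51). By the share of genes at least 2-fold apart, the nature library labelled omul was thus nearer than that labelled peled to reared larvae of both species. These correlations run across listed genes, which are not independent replicates.

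**Figure D3:**
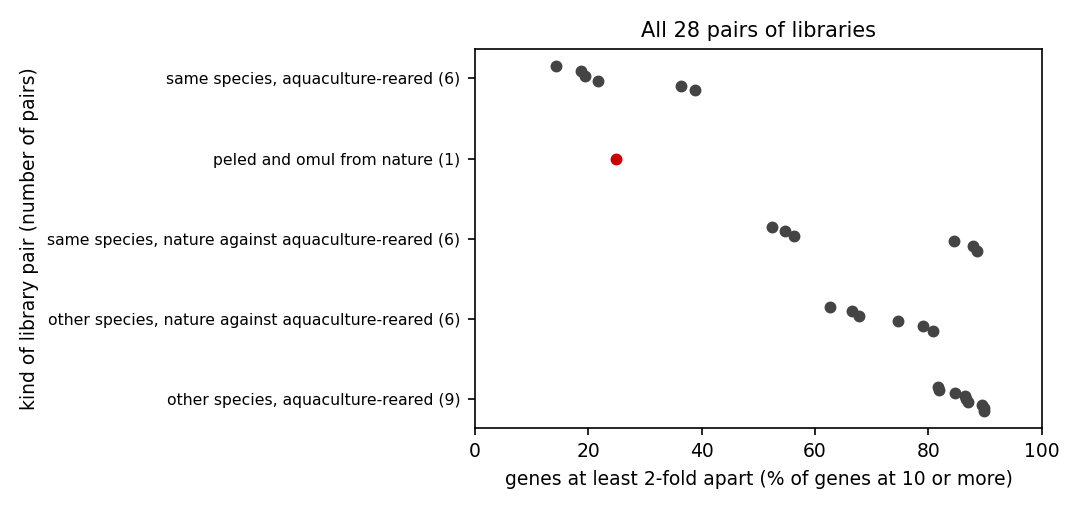
Share of genes at least 2-fold apart, in percent of genes that reach 10 in either library, for every pair of libraries, grouped by kind of pair (1 point a pair). The nature pair of peled and omul (red, 24.9%) lies among pairs of reared libraries of the same species, while pairs of reared peled and reared omul lie above 80% (81.7% to 89.9%).

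The difference between the nature libraries went with expression level. Genes with a mean level of 2 to 5 over both libraries had a median log2 ratio of -0.63, that is, lower values in the library labelled peled, and 88 of these 445 genes were higher in peled. The median was -0.035 for the 450 genes at a level of 10 to 20 and 0.42 for the 135 genes at 50 to 100. Of the 203 genes at a level of 100 or more, 44 were at least 2-fold higher in peled and 4 in omul. Of the 32 genes at 1000 or more, 30 were higher in peled, with a median of 0.80. The 10 highest genes held 32.4% of the summed value in omul and 35.7% in peled, 8 of them in both lists, and all 12 genes on either list were higher in peled, by 0.36 to 1.08 (log2).

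The balance of the 322 genes depended on the minimum value and on how the libraries were scaled. Under the deposited scaling, a minimum of 20 gave 129 genes higher in peled and 84 in omul. A minimum of 5 gave 172 and 265, and no minimum gave 183 and 340. Scaling to a common median gave 200 genes higher in peled and 124 in omul. Scaling to a common sum gave 27 and 235, and shifted the median log2 ratio of all genes from -0.14 to -0.56. With the smooth trend against level removed, an alternative chosen after seeing the data, there were 113 and 167. The number of genes at least 2-fold apart stayed between 262 and 324 under these scalings, and 150 to 282 of the original 322 were among them.

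**Figure D4:**
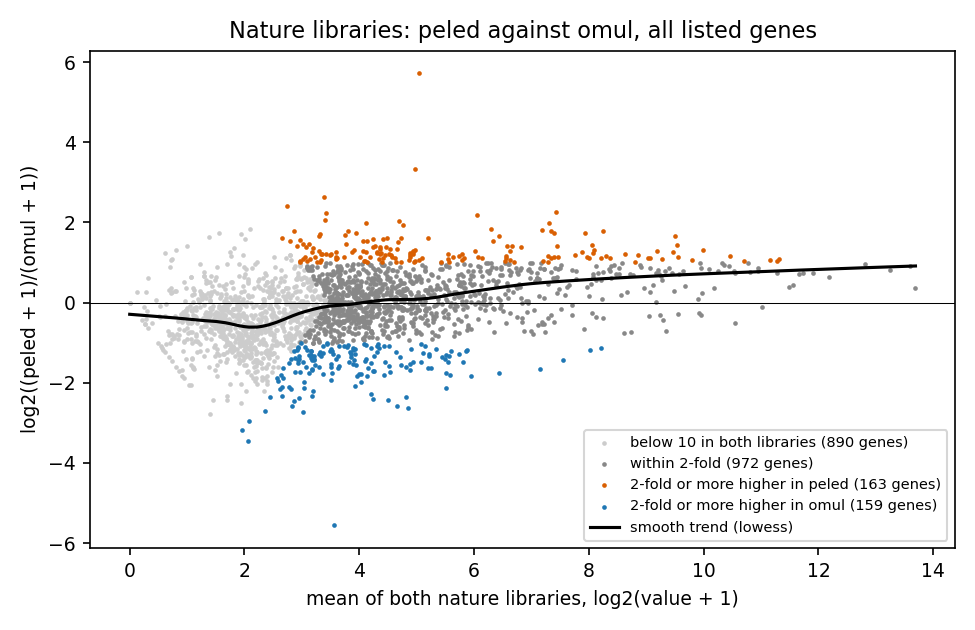
Log2 ratio of peled to omul in nature against the mean log2(value + 1) of both libraries, 1 point a gene (orange, 163 genes at least 2-fold higher in peled; blue, 159 higher in omul; dark grey, 972 within 2-fold; light grey, 890 below 10 in both). The black line is the smooth trend, which runs below 0 at low levels and above 0 at high levels.

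Few genes stood out singly. TRINITY_DN46766_c0_g4 had the highest ratio, at 237 in the library labelled peled and 3.52 in that labelled omul (log2 ratio 5.72). It was listed at 0 in the 3 reared peled libraries and in acute and chronic omul, and was at 1.29 in the omul control, so that a high value was seen in a single library of the 8. TRINITY_DN9638_c0_g3 was at 99.3 in peled and 8.88 in omul (log2 ratio 3.34), and between 1.09 and 3.81 in every reared library of either species. Both nature values of this gene lay above all reared values.

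On the omul side, TRINITY_DN49387_c1_g1 was at 80.2 in the library labelled omul and 0.728 in that labelled peled (log2 ratio -5.55). In aquaculture it was listed at 0 in the omul control, at 6.38 and 7.58 in acute and chronic omul, and at 13.7, 5.40 and 4.91 in the matching peled libraries, with overlapping species. TRINITY_DN4221_c2_g1 was at 12.8 in omul and 0.261 in peled (log2 ratio -3.45). Its reared values were 32.0, 23.8 and 26.0 in omul and 22.7, 43.1 and 3.48 in peled, so that the nature library labelled peled was the lowest of all 8. These 4 genes kept their sign and remained at least 2-fold apart under each pseudocount and scaling run.

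The difference of each gene in nature was also set beside its spread over control, acute and chronic libraries within a species. Among all 1294 genes read, 280 (21.6%) differed by more between the nature libraries than over the heat states of either species. Of these 280 genes 188 were among the 322 at least 2-fold apart, a set whose choice by the same nature difference raises its share. Heat states are not replicates of nature, and a pool-to-pool spread in nature cannot be had from these libraries.

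The genes apart in nature were next read in the reared pairs, which share no library with the nature pair. Most did not point the same way. Of the 163 genes higher in peled in nature, 122 (74.8%) were lower in peled than in omul in all 3 reared pairs, and 8 (4.91%) were higher in all 3. Among the 972 genes within 2-fold in nature, 63.4% were lower in peled in all 3 pairs and 29.6% higher. Of the 159 genes higher in omul in nature, 92 (57.9%) were higher in peled in all 3 reared pairs and 45 (28.3%) higher in omul. Together 53 of the 322 genes kept the sign of the nature difference in all 3 reared pairs and 214 had the opposite sign in all 3. These counts follow the labels as given, and with the nature labels exchanged they would change places.

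Their levels were then followed through every library. The 163 genes had a median of 43.5 in the nature library labelled peled and 16.6 in that labelled omul. In control, acute and chronic libraries their medians were 15.0, 17.8 and 18.9 in omul and 3.34, 3.13 and 5.44 in peled. The nature library labelled peled lay above all 3 reared peled libraries for 158 of the 163 and above all 3 reared omul libraries for 151. Among the 972 genes within 2-fold in nature it did so for 682 and 670, and the 163 had been chosen for high values in this library. The 159 genes had a median of 7.28 in the nature library labelled peled and 21.0 in that labelled omul, against 14.7 to 18.5 in reared omul and 26.6 to 29.5 in reared peled. For 111 of these 159 genes the library labelled peled was below all 3 reared peled libraries, as it was for 185 of the 972. The 159 had been chosen for low values in this library beside that labelled omul, which raises their count.

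**Figure D5:**
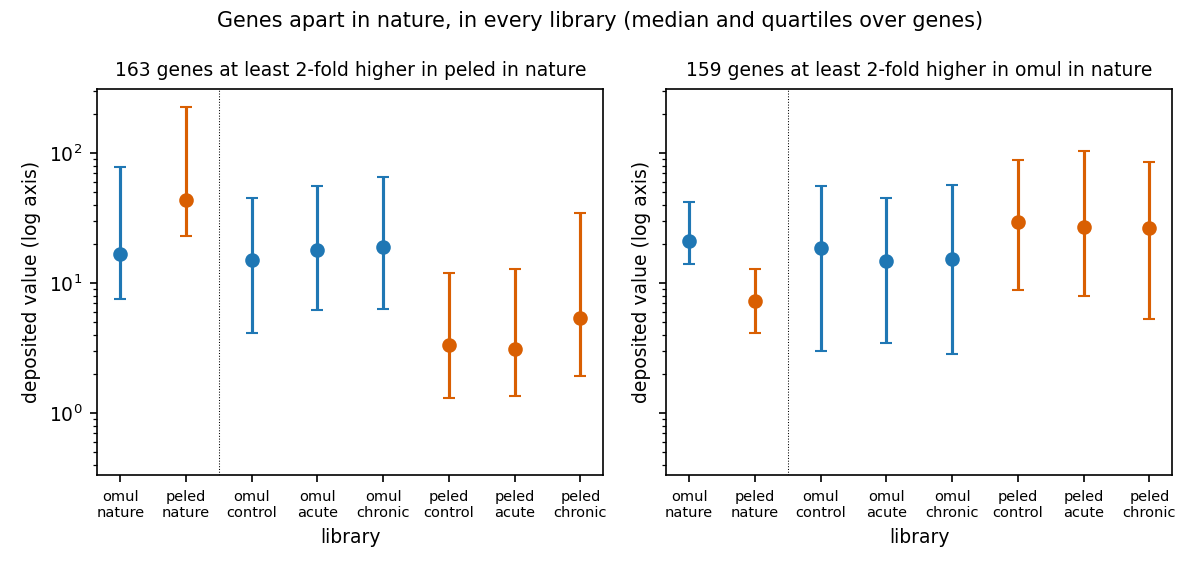
Median and quartiles over genes of the deposited value (log axis) in each library, for the 163 genes at least 2-fold higher in peled in nature (left) and the 159 higher in omul (right). The high median of the left set in the nature library labelled peled (43.5) stands beside 3.13 to 5.44 in the reared peled libraries, and the low median of the right set (7.28) beside 26.6 to 29.5. Both sets were chosen by their values in the nature libraries.

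Across genes, the log2 ratio of peled to omul in nature and the mean ratio in the reared libraries correlated at r = -0.31 (Spearman -0.34, 2184 genes). With the trend against level removed, r was -0.23. Within bands of level r was -0.0044 for genes below 2 and -0.082 for the 445 genes at 2 to 5. It was -0.24 to -0.46 in each band from 5 upward. These values describe the listed genes and carry no test, and with the nature labels exchanged each would have the other sign.

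A minority of genes held the same species order throughout. Of the 163 genes at least 2-fold higher in peled in nature, 5 (3.07%) were so in all 4 states. Of the 159 higher in omul, 28 (17.6%) were. Both shares were below those of the 972 genes within 2-fold in nature. Of these, 25.6% were at least 2-fold higher in peled in all 3 reared pairs and 46.8% in omul. TRINITY_DN30913_c0_g1 was at 27.3 in peled and 7.41 in omul in nature, at 12.0 and 2.83 in the controls, at 12.2 and 3.79 after acute and at 53.7 and 13.0 after chronic stress. Its log2 ratio lay between 1.46 and 1.96 in every state. TRINITY_DN21988_c1_g1 was at 12.5 in peled and 4.19 in omul in nature, a log2 ratio of 1.38. In aquaculture it was at 46.5 to 65.2 in peled and at 0 to 0.120 in omul, so that the libraries labelled peled and omul were far closer in nature. Its nature ratio fell under 2-fold with a pseudocount of 5 (0.93) or a common sum (0.83).

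Higher in omul in every state was TRINITY_DN11088_c3_g1, at 15.3 in omul and 3.11 in peled in nature (log2 ratio -1.99). Control, acute and chronic omul had 57.2, 39.1 and 56.0, and all 3 reared peled libraries were listed at 0. TRINITY_DN19861_c0_g1 was at 31.4 in omul and 7.25 in peled in nature (log2 ratio -1.97), and at 85.2 to 104 in reared omul and 1.47 to 2.89 in reared peled. In both genes the nature libraries lay between the reared libraries of the species. Their order there follows the labels by choice, since the genes were taken for the same sign in every state.

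Whether the species difference itself changed with origin was tested with limma, as the difference between peled and omul in nature minus that in aquaculture. The control, acute and chronic libraries of a species stood in for replicates of its reared mean, and each nature pool was assumed to vary as these do. Of 2184 genes tested, 1307 (59.8%) were called at a limma adjusted p below 0.05, with 650 relatively higher in peled in nature and 657 relatively lower. In 1232 of the 1307 the species difference was the smaller in nature, and in 75 it was the larger. The median size of the log2 difference in the called genes was 0.56 in nature and 2.61 in aquaculture. With the labels as given, the sign was opposite in the origins for 1054 of the 1307. Opposite signs make the contrast larger, so the call itself raises this count. Neither this count nor that of smaller differences is given over all 2184 genes. The contrast was not fitted with the nature labels exchanged, which would also change which genes are called. Nor was it fitted under a common sum, which shifted the median log2 ratio in nature from -0.14 to -0.56. Since the list is rich in genes that differ among reared larvae, the excess of smaller differences in nature refers to this list, and the part of the listing rule in it was not tested. Of the 322 genes apart in nature 199 (61.8%) were called, a share near the 59.8% of all genes.

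Most of the highest values of this contrast belonged to genes already described. The genes below were taken for the largest contrast among called genes, so their calls follow from the choice and add no separate support. For TRINITY_DN7205_c1_g2 the log2 ratio of peled to omul was 0.23 in nature and -8.67 in aquaculture, a contrast of 8.90 (SE 0.69, limma adjusted p = 0.000589). For TRINITY_DN79_c1_g2 it was -0.50 in nature and 10.24 in aquaculture, a contrast of -10.74 (SE 1.48, limma adjusted p = 0.00195). TRINITY_DN28795_c0_g1 had -0.32 and 8.60, a contrast of -8.93 (SE 1.10, limma adjusted p = 0.00135). TRINITY_DN10607_c0_g4 was at 1301 in peled and 407 in omul in nature. Control, acute and chronic values were 1.68, 21.0 and 1.27 for peled and 522, 772 and 700.0 for omul. Its contrast was 8.68 (SE 1.64, limma adjusted p = 0.00490), from a log2 ratio of 1.67 in nature and -7.01 in aquaculture.

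Among the genes with the highest nature ratios, TRINITY_DN46766_c0_g4 had a contrast of 6.12 (SE 0.88) and TRINITY_DN49387_c1_g1 of -6.60 (SE 1.60), and both were called. The genes of this paragraph, apart from TRINITY_DN30913_c0_g1, were named for the largest nature ratios of their direction, which are part of the contrast. Their calls are therefore not independent of the choice. TRINITY_DN30913_c0_g1 was named from genes at least 2-fold apart in nature with the same sign in every state. Its nature ratio thus also entered the choice. All reared values of TRINITY_DN46766_c0_g4 were 1.29 or lower. Its SE therefore does not measure the spread of a library at 237. TRINITY_DN9638_c0_g3 had a contrast of 2.80 (SE 0.73, limma adjusted p = 0.0132). The calls of TRINITY_DN9638_c0_g3 and TRINITY_DN49387_c1_g1 were lost with a pseudocount of 0.1 (limma adjusted p = 0.0566 and 0.0508). TRINITY_DN4221_c2_g1 did not pass (contrast -2.71, SE 1.50, limma adjusted p = 0.143), but did without the chronic peled library (-3.66, limma adjusted p = 0.00576). TRINITY_DN30913_c0_g1, with like ratios in all states, had a contrast of 0.022 (SE 1.37, limma adjusted p = 0.989), an error too wide to say that the ratio did not change.

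In 682 genes both nature libraries lay outside the range of all 6 reared libraries, 410 above it and 272 below. Of the 410, 402 could be read in nature, and 78 of these were at least 2-fold higher in the library labelled peled and 8 in that labelled omul, where all genes read gave 12.6% and 12.3%. Of the 272, 57 could be read, with 0 at least 2-fold higher in peled and 40 in omul. These counts were taken under the deposited scaling alone and were not matched for level, with which the nature ratio changed. The same nature values set the 410 and 272 genes apart, decided which could be read and gave the ratio. The splits are therefore not independent of the choice. Some listed genes share an assembly component, and so sequence and possibly reads. Of 2078 components 99 held 2 or 3 listed genes. The nature ratio had the same sign in all listed genes of 74 of these components and differed in sign within 25. Only 8 had at least 2 genes past 2-fold. In 5 of the 8 all such genes were higher in peled, in 3 all were higher in omul, and in 0 did they go in opposite directions.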

How the data were processed

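Values are normalized expression signals as deposited by the authors, with 3 decimals and unstated unit; their scaling is not stated in the sources used here. The submitters' processing notes list edgeR 4.0.3 and Trimmomatic 0.36, with no step assigned. Groups follow the sample titles. Ratios were taken on log2(value + 1), which understates the change of low genes, and genes at 10 or more in the higher nature library were counted at 2-fold. The test chosen for counts did not apply. The difference of species differences was fitted with limma 3.58.1 in R 4.3.3, using 4 means (species by origin), a trend with level, 4 residual degrees of freedom and Benjamini-Hochberg adjustment over 2184 genes. A filter at a mean value of 1 removed 0 genes. In a simulation of this fit on 2184 genes, 45 of 50 genes changed by 6 (log2) were recovered, 27 of 50 at 4, 5 of 50 at 2 and 1 of 50 at 1, with 7 false calls. The simulated nature libraries were given the spread per gene of the reared libraries, and most genes were left unchanged. The simulated false calls therefore do not measure those among the genes called in the data. P-values measure the spread among the control, acute and chronic pools of a species, 1 pool each. That spread mixes heat treatment with pool differences and may be technical in part. No spread among nature pools enters it. Named for each comparison were at most 2 genes a direction with the largest ratio, contrast, smallest ratio over the 4 states, or gap in aquaculture. The members and rules were chosen with earlier results of these data known. The trend against level was a lowess curve (fraction 0.3, statsmodels 0.14.6).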

Additional observations from a re-analysis of the deposited data

Results flagged for a closer look

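The difference between the nature libraries labelled peled and omul differed from the species difference in aquaculture, by limma's test of the difference itself, for 1307 of 2184 genes. Of the genes named in the text, the contrast (nature minus aquaculture, log2) passed upward for TRINITY_DN7205_c1_g2 (8.90), TRINITY_DN10607_c0_g4 (8.68), TRINITY_DN5_c3_g1 (7.81), TRINITY_DN46766_c0_g4 (6.12), TRINITY_DN11088_c3_g1 (3.68), TRINITY_DN19861_c0_g1 (2.87) and TRINITY_DN9638_c0_g3 (2.80). It passed downward for TRINITY_DN79_c1_g2 (-10.74), TRINITY_DN28795_c0_g1 (-8.93), TRINITY_DN49387_c1_g1 (-6.60) and TRINITY_DN21988_c1_g1 (-4.32). All were named for values that enter the contrast, so these calls are not independent of the choice. Groups of 1 library could not be screened for samples far from the others.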

How the results depend on the processing

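The count of 322 genes at least 2-fold apart in nature became 213 at a minimum value of 20, 523 with no minimum and 35 at 4-fold, and was 215 to 437 under the other alternatives, with 172 genes higher in peled and 265 in omul at a minimum of 5. The 53 genes of the same sign in all reared pairs became 33 with a pseudocount of 5 (140 of opposite sign), 84 at a minimum of 5 and 27 at a minimum of 20. The 1307 genes called by limma became 738 of 1185 tested at a mean value of at least 10, where fewer genes were tested, and 1088 to 1473 when a reared library was left out. On genes higher in peled, the positions of the nature libraries (omul, then peled) were 0.77 and 0.69 for genes separated 16-fold, 0.61 and 0.47 after quantile normalization, and 0.68 to 0.74 and 0.53 to 0.57 with a reared library left out. On genes higher in omul they were 0.19 and 0.085 with a common median, 0.19 and 0.14 after quantile normalization, and 0.095 to 0.13 and 0.012 to 0.058 with a reared library left out. The contrast of TRINITY_DN30913_c0_g1, which was not called, turned to -0.045 with a pseudocount of 0.1 and was -0.55 to 0.71 with a reared library left out (-0.33 without the peled control, -0.32 without acute peled). The causes of these shifts were not tested. No paired analysis was possible because each group holds 1 library and the labels give no replicate numbers. Neither nature library can be left out of its own comparison, and with depth unknown no counting error can be given for low values.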
